A study of Rattus norvegicus with 12 samples.

Results

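The genes described here are those of the smooth muscle contractile apparatus, of the dense bodies and dense plaques that anchor it, and of the serum response factor (SRF) and myocardin programme that drives its transcription. They were taken from a list of 47 gene symbols and matched to the probe sets of the array that carry exactly 1 gene symbol. Of the 47 genes, 41 had such a probe set, 1 each, among 14506 genes measured in all. The other 6 were not analysed here: Cnn2, Synpo2, Filip1l, the SRF coactivators Mrtfa and Mrtfb, and Myl6, whose only probe set also carries the symbols Myl6b and Myl6l.

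RNA came from cultured vascular smooth muscle cells of the aorta of Sprague-Dawley rats, which the labels call differentiated. All cells were grown in medium with 10% fetal bovine serum and then kept without serum for 48 h. The 4 groups were untreated control cells and cells given 100 nM angiotensin II (Ang II), the vasoconstrictor peptide of the renin-angiotensin system, for 6 h, 12 h or 24 h, with 3 arrays each (Affymetrix Rat Gene 1.0 ST, hybridised with biotin-labelled RNA). Sample titles and the study design name these times, whereas the treatment protocol in the labels names 1, 3 or 24 h, and the titles were followed. Within a group the arrays carry the numbers 1 to 3 as biological replicates, with no animal or culture named for them, and the p-values cover only the spread seen between arrays. Untreated cells kept for 6, 12 or 24 h were not analysed here, so Ang II and the hours spent in culture cannot be told apart in any comparison with control.

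Smooth muscle contracts when calcium and calmodulin activate myosin light chain kinase, which phosphorylates the regulatory light chain of myosin, while myosin phosphatase removes that phosphate and is itself under the control of inhibitors. The filaments are anchored in dense bodies within the cell and in dense plaques at its membrane. Many genes of this machinery carry in their regulatory regions CArG boxes, the sites bound by SRF. SRF works there with myocardin or its relatives, while at immediate-early genes it works with ternary complex factors, and cultured smooth muscle cells are known to lose part of this programme when they turn to growth.

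The values are log2 probe set levels, so a difference of 1 is a doubling, and they are compared only within a probe set. Here a gene is said to have risen or fallen when limma, fitted to all 14506 genes and 12 arrays, gave a Benjamini-Hochberg adjusted p under 0.05. The number of arrays limits the precision, and the median standard error of a log2 difference from control was 0.0667. The 10 defining smooth muscle markers (Acta2, Myh11, Tagln, Cnn1, Smtn, Lmod1, Des, Myocd, Mylk and Cald1) averaged 9.7 to 14.4 over the 12 arrays, against a median of 8.0 over all genes. Defining endothelial markers (5 measured) averaged 5.6 to 6.4 and leukocyte markers (5 measured) 5.3 to 6.8, all below the array medians of 7.22 to 7.32, although probe sets differ in brightness and no detection call was used here. Of 5 fibroblast markers 1 had a mean at or above the higher median of 8.0 over all genes, Pdgfra with 8.7. Scara5, another of them, averaged 8.07 in control cells and 7.18 at 24 h. Of 6 striated muscle markers 1 also reached that median of 8.0, Ckm with a mean of 8.2. The longer marker lists used further below hold brighter genes, which reach 13.31 for fibroblasts, 13.12 for striated muscle, 10.71 for endothelium and 8.22 for leukocytes in control cells. The upper end of the scale was close for several members, since the highest value in the table was 14.6.

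CArG boxes are described first, because they are an element known from many, though not all, of the members. The search covered the 250 bases before each RefSeq gene start (assembly GRCr8), for the 10-base CArG box, which reads the same way on both strands. A box lay in this window in 4 of the 34 measured members that have a promoter entry (11.8%), namely Srf, Fhl1, Fhl2 and Fbxl22. It lay there in 445 of the 27456 genes with a promoter entry (1.62%), a set not limited to genes measured on the array. A box with 1 G or C among its 6 inner bases lay there in 3 of the 34 members (8.82%: Acta2, Tgfb1i1 and Zyx) and in 7.39% of these 27456 genes. The windows of the first 4 genes and of Acta2 are shown because they hold these letters next to genes whose levels follow below. Each stretch is printed 5′ to 3′ on the strand of the gene with the boxes in capitals, and for Fhl2 around 2 separate starts.
Srf, chr9:21923965-21924054, plus strand: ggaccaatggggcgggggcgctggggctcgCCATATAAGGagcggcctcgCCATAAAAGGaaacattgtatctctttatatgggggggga
Fhl2, first start, chr9:52954596-52954665, minus strand: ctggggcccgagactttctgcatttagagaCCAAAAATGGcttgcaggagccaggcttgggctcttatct
Fhl2, other start, chr9:52923345-52923414, minus strand: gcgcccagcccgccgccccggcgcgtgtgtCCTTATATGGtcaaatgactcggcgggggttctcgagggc
Fhl1, chrX:139638364-139638433, plus strand: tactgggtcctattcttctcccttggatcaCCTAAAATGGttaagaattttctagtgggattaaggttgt
Fbxl22, chr8:75971879-75971948, minus strand: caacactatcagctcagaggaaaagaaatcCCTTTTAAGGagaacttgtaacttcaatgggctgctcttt
Acta2, chr1:241172548-241172667, minus strand: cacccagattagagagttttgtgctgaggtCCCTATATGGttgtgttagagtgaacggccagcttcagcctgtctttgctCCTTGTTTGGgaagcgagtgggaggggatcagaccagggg

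Srf carries 2 boxes, which begin 81 and 61 bases before its start. In Fbxl22 the box begins 204 bases before the start, in Fhl1 102 bases, and in Fhl2 95 bases before one start and 58 before the other. The pair of near matches in Acta2 begins 134 and 84 bases before its start. A match says only that these letters are present, and members without one may hold boxes outside the window.

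The common direction of the set was clearest at 24 h. Of the 41 genes, 37 were higher in cells treated with Ang II for 24 h than in control cells (90.2%), 1 was lower and 3 did not pass, where 15.3% of all genes rose and 14.7% fell. At 12 h 22 members rose (53.7%, against 13.3% of all genes) and 1 fell (2.44%, against 13.3% of all genes). At 6 h the members went both ways, with 13 higher (31.7%, against 18.6% of all genes) and 10 lower (24.4%, against 17.2% of all genes). The changes were mostly small: the median log2 difference of the members was 0.04 at 6 h, 0.17 at 12 h and 0.41 at 24 h, beside 0.01, 0.01 and 0.05 over all genes. Counted instead by arrays, all 3 arrays lay above all 3 control arrays in 17 members at 6 h, 28 at 12 h and 39 at 24 h, as they did in 24.8%, 20.3% and 25.4% of all genes. They lay wholly below in 11 members at 6 h, 4 at 12 h and 1 at 24 h, against 22.4%, 20.4% and 19.4% of all genes. At 24 h 12 members passed with a rise of at least 1.5-fold (29.3%, against 1.59% of all genes) and 4 with at least 2-fold (9.76%, against 0.338% of all genes). In such bulk RNA a change in the number of cells of a type and in the RNA per cell cannot be told apart.

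**Figure D1:**
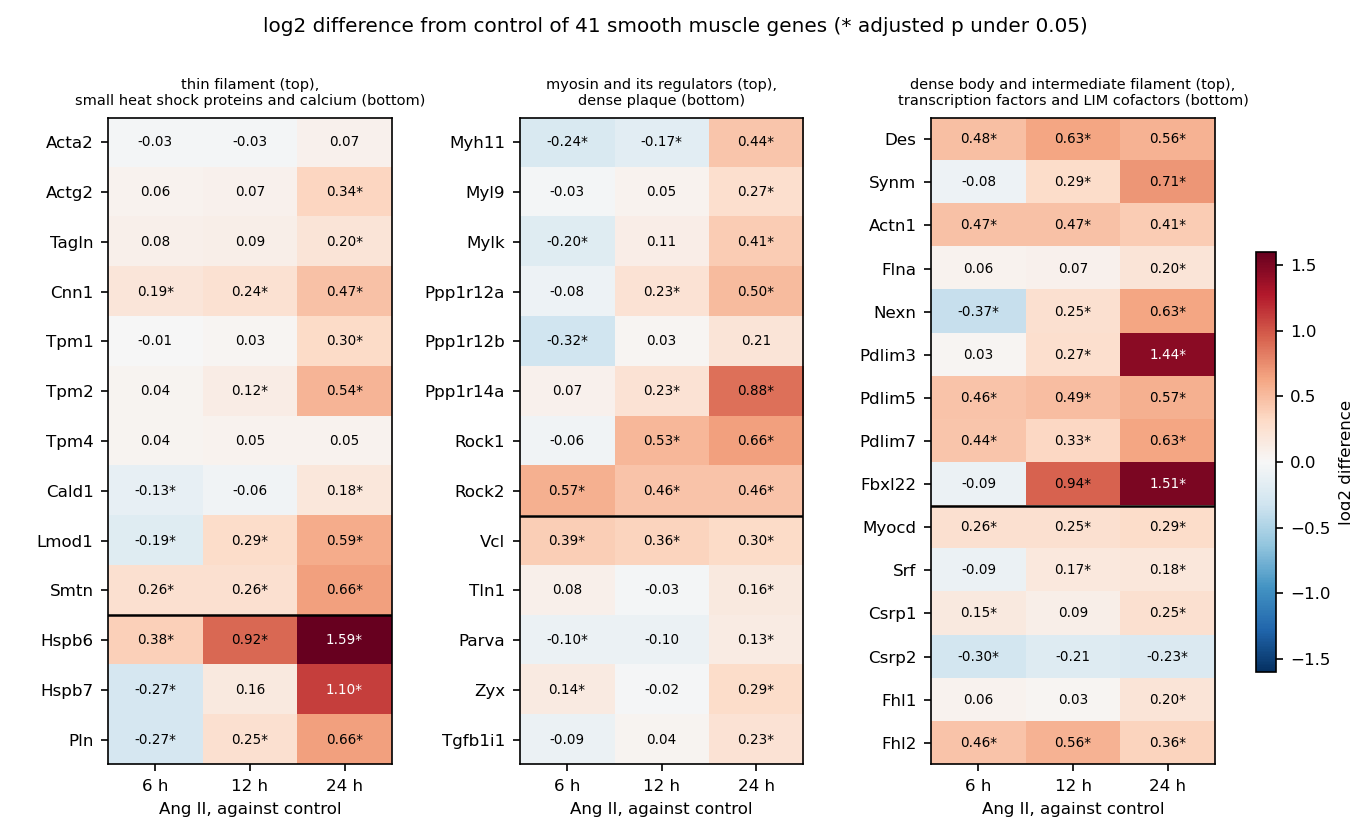
Differences of the group means from control (log2 units) for the 41 measured genes, a row per gene and a column per time of Ang II, with colour from blue (lower) to red (higher) and an asterisk where the limma adjusted p was under 0.05. At 24 h 37 genes are higher and pass, while the 6 h column holds 13 higher and 10 lower genes that pass.

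Most of these genes are bright on the array, and bright genes pass more often. Of the 41 members, 36 belonged to the brightest quartile of all genes, where 25.7% rose at 24 h. At 6 h 33.3% of that quartile rose, and with 13 of the 36 members the share among them was near it, while at 12 h 26.4% rose and 20 of the 36 members did. Of these 36 members 34 rose at 24 h with a median difference of 0.38, against a median of 0.01 over all genes of that quartile. For falls at 6 h, a fit of only the 7253 genes at or above the median level called 2161 genes lower. In that fit 10 of the 39 members kept were lower, a share not above that of the 7253 genes. The 24 h arrays had a narrower spread of levels, with an interquartile range over genes of 3.26 to 3.39 log2 units, against 3.45 to 3.46 in control arrays. After a further quantile normalization, which equalises that spread, 38 members were higher at 24 h, with a median of 0.40. The dimmest quartile, which holds no member, had a median difference of 0.10 at 24 h.

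**Figure D2:**
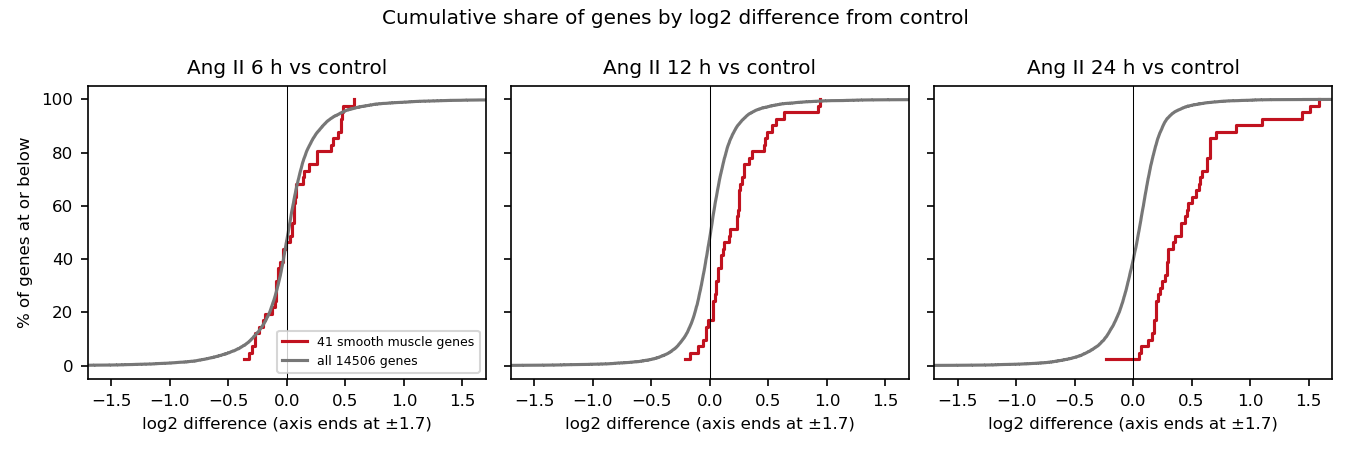
Cumulative percent of genes (vertical axis) at or below a given log2 difference from control (horizontal axis), for the 41 smooth muscle genes in red and all 14506 genes in grey, at 6, 12 and 24 h of Ang II. The curves nearly coincide below 0 at 6 h, and at 24 h the red curve lies to the right, with medians of 0.41 for the smooth muscle genes and 0.05 for all genes.

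Of the 10 genes of the thin filament, which is built of actin and the proteins along it, 8 rose at 24 h and the exceptions were Acta2 and Tpm4. At 6 h 2 of them rose and 2 fell. Acta2, the gene of smooth muscle alpha-actin, read 14.41, 14.37 and 14.39 in control cells, 14.37, 14.37 and 14.35 at 6 h, 14.37, 14.35 and 14.37 at 12 h, and 14.43, 14.49 and 14.47 at 24 h. Its 24 h arrays lay just above all control arrays, but the difference of 0.07 ± 0.04 did not pass (limma adjusted p = 0.146, 95% interval 0.00 to 0.15), and neither did those at 6 h (-0.03 ± 0.04) and 12 h (-0.03 ± 0.04). With a trended robust variance the small difference at 24 h did pass (adjusted p = 0.0037). Acta2 also lay near the upper end of the scale, whose highest value was 14.6. Actg2, which encodes the gamma-actin of smooth muscle, read 13.60, 13.60 and 13.63 in control cells, 13.69, 13.69 and 13.63 at 6 h, 13.67, 13.67 and 13.70 at 12 h, and 13.93, 13.95 and 13.95 at 24 h. It stood apart at 24 h, where it rose by 0.34 ± 0.04 (1.26-fold, adjusted p = 2.23e-05, limma), while the differences at 6 h (0.06 ± 0.04) and 12 h (0.07 ± 0.04) did not pass. With a trended robust variance these small differences of Actg2 passed (limma adjusted p = 0.0263 at 6 h and 0.0104 at 12 h). Actin genes have near-identical coding sequences, and how far their probes separate them was not tested. Of the actin genes outside the list, Acta1, the actin of skeletal muscle, averaged 14.09 at 24 h against 13.12 in control cells (0.97 ± 0.04). Actc1 also rose at 24 h (0.50 ± 0.07, limma adjusted p = 0.000161). The cytoplasmic actins Actb and Actg1, also near the top of the scale, had differences of 0.07 ± 0.04 and 0.09 ± 0.03 at 24 h that did not pass (limma adjusted p = 0.178 and 0.0833).

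Of the actin-binding proteins, transgelin and calponin are the classical markers of differentiated smooth muscle. Tagln, which encodes transgelin, read 13.93, 13.95 and 14.00 in control cells, 14.08, 13.97 and 14.06 at 6 h, 14.06, 14.05 and 14.06 at 12 h, and 14.15, 14.15 and 14.17 at 24 h. Its rise at 24 h was 0.20 ± 0.04 (limma adjusted p = 0.00368), with the 24 h arrays above every control array. The differences of Tagln at 6 h (0.08 ± 0.04) and 12 h (0.09 ± 0.04) did not pass. They did with a trended robust variance (limma adjusted p = 0.0136 and 0.00374), and at 12 h with only genes at or above the median level (0.0473). Cnn1, the gene of calponin, an inhibitor of the myosin ATPase, read 13.22, 13.30 and 13.28 in control cells, 13.50, 13.41 and 13.45 at 6 h, 13.46, 13.49 and 13.55 at 12 h, and 13.75, 13.74 and 13.73 at 24 h. It rose at all 3 times, by 0.19 ± 0.04, 0.24 ± 0.04 and 0.47 ± 0.04, and the last of these steps also passed against 12 h (0.23 ± 0.04). Smtn, which encodes the actin-binding protein smoothelin, read 11.52, 11.56 and 11.56 in control cells, 11.83, 11.75 and 11.83 at 6 h, 11.80, 11.80 and 11.83 at 12 h, and 12.22, 12.24 and 12.15 at 24 h. The 6 h and 12 h arrays of Smtn overlapped each other and lay above control by 0.26 ± 0.04 and 0.26 ± 0.04, and the 24 h arrays were higher again, at 0.66 ± 0.04 or 1.58-fold over control.

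Lmod1, which encodes leiomodin, a nucleator of actin filaments, read 10.70, 10.73 and 10.69 in control cells, 10.52, 10.48 and 10.55 at 6 h, 10.95, 11.05 and 11.00 at 12 h, and 11.31, 11.30 and 11.28 at 24 h. It fell at 6 h by 0.19 on the log2 scale and then rose at 12 h and 24 h, so that all arrays of each group were separate from those of the other 3 groups. The tropomyosin genes, whose products lie along the thin filament, moved unequally at 24 h: Tpm2 rose by 0.54 ± 0.04 and Tpm1 by 0.30 ± 0.04, and Tpm4, known as the form of non-muscle and growing cells, had 0.05 ± 0.04 (limma adjusted p = 0.347, 95% interval -0.03 to 0.13). The rise of Tpm2 at 12 h (0.12 ± 0.04) was lost in 8 of the 12 single-array omissions (adjusted p up to 0.13, limma). Caldesmon, encoded by Cald1, restrains myosin binding to actin, and its gene was lower at 6 h (-0.13 ± 0.03, a call lost with each array centred on its median, adjusted p = 0.0557, limma) and higher at 24 h (0.18 ± 0.03).

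**Figure D3:**
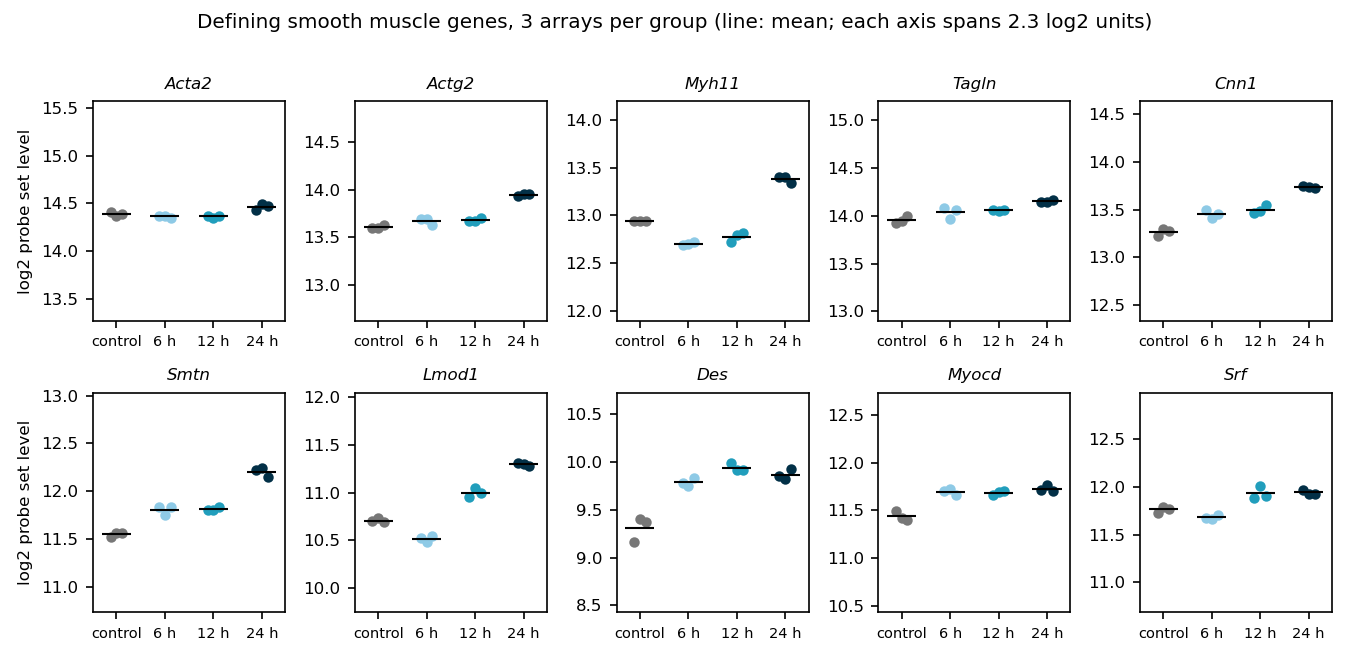
Log2 probe set level (vertical axis) of 10 smooth muscle genes on each of the 12 arrays, grouped as control and 6, 12 and 24 h of Ang II, with a line at the group mean. Myh11 and Lmod1 dip at 6 h and exceed control at 24 h, and Acta2 stays between 14.35 and 14.49. Myocd reaches its higher level by 6 h, while Des is above control at 6 h and highest at 12 h.

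Of the 8 genes of myosin and of the enzymes that switch it, 7 were higher at 24 h, with Ppp1r12b as the exception, whereas at 6 h 1 was higher and 3 were lower. Myh11, which encodes smooth muscle myosin heavy chain, read 12.94, 12.94 and 12.94 in control cells, 12.69, 12.70 and 12.72 at 6 h, 12.72, 12.79 and 12.81 at 12 h, and 13.40, 13.40 and 13.34 at 24 h. The 3 control arrays were alike to the precision given, the 6 h and 12 h arrays all lay below them (differences of -0.24 ± 0.04 and -0.17 ± 0.04), and the 24 h arrays lay above by 0.44 ± 0.04 (1.36-fold, limma adjusted p = 5.18e-06). Myh11 was the 1 member that fell at 12 h. The step between 12 h and 24 h was 0.61 ± 0.04. Mylk, the gene of the kinase that activates myosin, was likewise lower at 6 h (-0.20 ± 0.04), not past the threshold at 12 h (0.11 ± 0.04) and higher at 24 h (0.41 ± 0.04). Myl9, the regulatory light chain that this kinase phosphorylates, rose at 24 h (0.27 ± 0.04), and its differences of -0.03 ± 0.04 at 6 h and 0.05 ± 0.04 at 12 h did not pass.

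Myosin phosphatase consists of a catalytic subunit and a targeting subunit encoded by Ppp1r12a or Ppp1r12b, and Ppp1r14a encodes its inhibitor CPI-17. Ppp1r14a read 10.40, 10.53 and 10.38 in control cells, 10.53, 10.39 and 10.58 at 6 h, 10.62, 10.66 and 10.72 at 12 h, and 11.35, 11.31 and 11.29 at 24 h. The gene changed late: it did not pass at 6 h (0.07 ± 0.06), rose by 0.23 ± 0.06 at 12 h, and reached 0.88 ± 0.06 (1.84-fold, limma adjusted p = 4.94e-07) at 24 h. The targeting subunit gene Ppp1r12a rose at 12 h (0.23 ± 0.04) and 24 h (0.50 ± 0.04). Ppp1r12b read 8.60, 8.54 and 8.71 in control cells, 8.21, 8.40 and 8.28 at 6 h, 8.71, 8.72 and 8.50 at 12 h, and 9.03, 8.76 and 8.69 at 24 h. Ppp1r12b fell at 6 h (-0.32 ± 0.09, adjusted p = 0.018, limma), a call lost when control array 3 or 6 h array 1 or 3 was left out (adjusted p up to 0.0735), and its 24 h value of 0.21 ± 0.09 did not pass. Its scatter, with an SD of 0.18 at 24 h, was the widest of any member in that group.

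Rock1 and Rock2, which encode kinases that inhibit myosin phosphatase, rose at different times. Rock2 read 12.13, 11.96 and 12.02 in control cells, 12.58, 12.65 and 12.58 at 6 h, 12.47, 12.50 and 12.53 at 12 h, and 12.45, 12.52 and 12.50 at 24 h. It had the largest rise of any member at 6 h, 0.57 ± 0.05 (1.48-fold, limma adjusted p = 2.39e-06), and stood at 0.46 ± 0.05 at 24 h. Rock1 read 10.69, 10.49 and 10.61 in control cells, 10.51, 10.58 and 10.55 at 6 h, 11.09, 11.17 and 11.14 at 12 h, and 11.29, 11.20 and 11.29 at 24 h. At 6 h Rock1 overlapped control (-0.06 ± 0.05, adjusted p = 0.515), and it then rose to 0.53 ± 0.05 at 12 h and 0.66 ± 0.05 at 24 h, with a step between 6 h and 12 h of 0.59 ± 0.05.

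The small heat shock proteins and phospholamban rose at 24 h, all 3 of 3 genes, and Hspb6 had the largest rise of the 41 members at that time. Hspb6, whose product HSP20 is a substrate of the cyclic nucleotide kinases and is linked to relaxation of smooth muscle, read 10.95, 10.81 and 11.02 in control cells, 11.40, 11.28 and 11.25 at 6 h, 11.89, 11.72 and 11.92 at 12 h, and 12.44, 12.52 and 12.57 at 24 h. Each group of Hspb6 lay wholly above the one before, and the rises over control were 0.38 ± 0.07, 0.92 ± 0.07 and 1.59 ± 0.07, the last being 3.0-fold (limma adjusted p = 2.45e-08). Hspb7, a related gene best known from heart muscle, read 7.62, 7.69 and 7.78 in control cells, 7.63, 7.33 and 7.33 at 6 h, 7.78, 7.91 and 7.88 at 12 h, and 8.81, 8.76 and 8.83 at 24 h. It fell at 6 h (-0.27 ± 0.08), although 1 of its 6 h arrays read within the control range and the call was lost without control array 3 or 6 h array 2 or 3 (adjusted p up to 0.0827, limma), and it rose by 1.10 ± 0.08 at 24 h. Pln, the gene of phospholamban, which restrains the calcium pump of the sarcoplasmic reticulum, read 12.59, 12.68 and 12.61 in control cells, 12.43, 12.31 and 12.34 at 6 h, 12.88, 12.89 and 12.87 at 12 h, and 13.26, 13.27 and 13.32 at 24 h. Pln was lower at 6 h (-0.27 ± 0.04), then higher at 12 h (0.25 ± 0.04) and 24 h (0.66 ± 0.04), with the 4 groups fully apart.

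**Figure D4:**
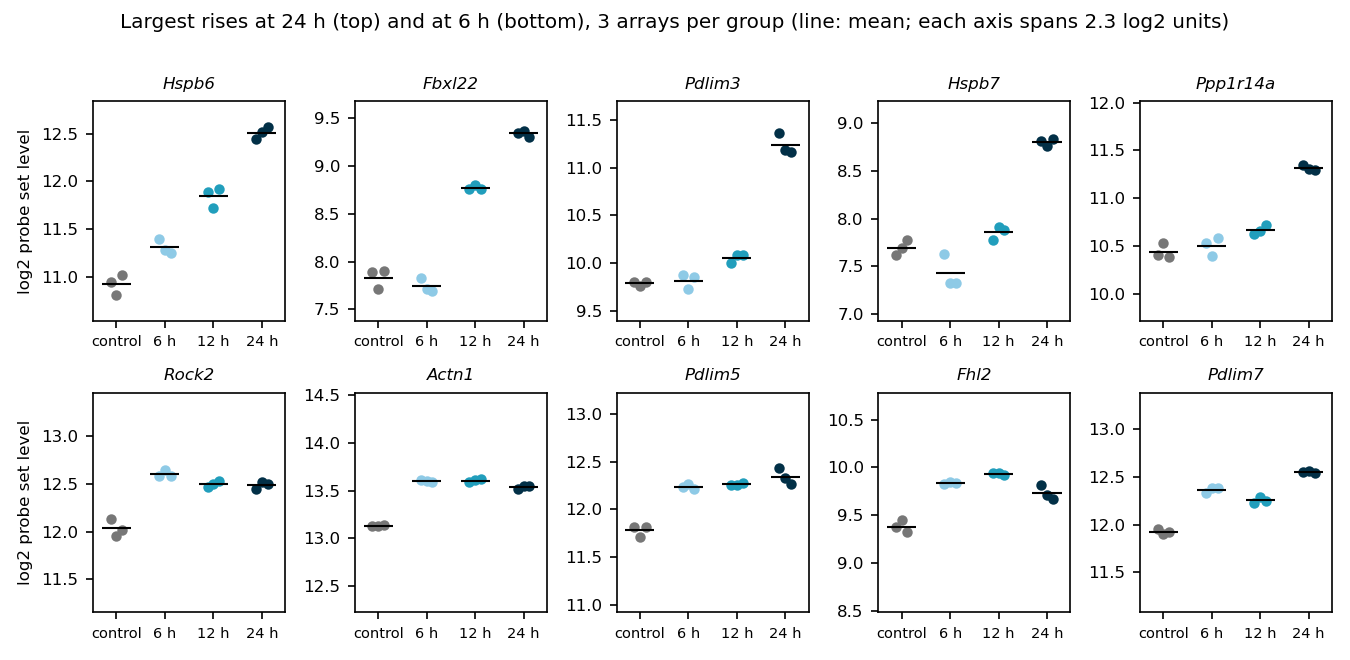
Log2 probe set level (vertical axis) on each of the 12 arrays, with a line at the group mean, for the 5 genes with the largest rise at 24 h (upper row) and for 5 of those with the largest rises at 6 h (lower row). The upper genes are highest at 24 h, Hspb6 by 1.59 over control, and of these only Hspb6 is called higher at 6 h. Rock2, Actn1, Pdlim5 and Fhl2 are within 0.57 of control at each time and have most of their rise by 6 h.

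All 9 genes of the dense bodies, the counterpart of the striated muscle Z-disc, and of intermediate filaments rose at 24 h, 8 of them also at 12 h and 4 at 6 h. Des, which encodes the intermediate filament protein desmin, read 9.16, 9.40 and 9.37 in control cells, 9.78, 9.75 and 9.83 at 6 h, 9.99, 9.92 and 9.92 at 12 h, and 9.85, 9.82 and 9.93 at 24 h. All Ang II arrays of Des lay above control, its rise was present at 6 h (0.48 ± 0.06) and stood at 0.63 ± 0.06 and 0.56 ± 0.06 at 12 h and 24 h. Actn1, the gene of the actin crosslinker alpha-actinin, read 13.13, 13.13 and 13.14 in control cells, 13.61, 13.60 and 13.59 at 6 h, 13.59, 13.61 and 13.62 at 12 h, and 13.52, 13.55 and 13.55 at 24 h. Actn1 arrays of each Ang II group lay close to each other and above every control array, with rises of 0.47 ± 0.03, 0.47 ± 0.03 and 0.41 ± 0.03. Flna, encoding the crosslinker filamin A, rose by 0.20 ± 0.03 at 24 h.

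The PDZ and LIM domain genes of the dense body, whose products link alpha-actinin to other proteins, were not alike in timing. Pdlim5 read 11.82, 11.71 and 11.81 in control cells, 12.23, 12.27 and 12.21 at 6 h, 12.26, 12.25 and 12.28 at 12 h, and 12.43, 12.33 and 12.27 at 24 h. Pdlim7 read 11.95, 11.90 and 11.92 in control cells, 12.33, 12.38 and 12.38 at 6 h, 12.23, 12.29 and 12.25 at 12 h, and 12.55, 12.56 and 12.54 at 24 h. In both genes every Ang II array lay above control. They were up at 6 h, by 0.46 ± 0.05 and 0.44 ± 0.04, and stood at 0.57 ± 0.05 and 0.63 ± 0.04 at 24 h. Pdlim3 read 9.80, 9.76 and 9.80 in control cells, 9.87, 9.73 and 9.85 at 6 h, 10.00, 10.08 and 10.08 at 12 h, and 11.36, 11.18 and 11.16 at 24 h. Its 6 h arrays overlapped control (0.03 ± 0.06, limma adjusted p = 0.782), and its rise over control of 0.27 ± 0.06 at 12 h became 1.44 ± 0.06 (2.72-fold) at 24 h, the largest step of any member between these times (1.18 ± 0.06).

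Fbxl22, which encodes an F-box protein known from the sarcomere of heart muscle, read 7.89, 7.71 and 7.90 in control cells, 7.83, 7.71 and 7.69 at 6 h, 8.76, 8.80 and 8.76 at 12 h, and 9.35, 9.37 and 9.31 at 24 h. The 6 h arrays overlapped control and their difference did not pass (-0.09 ± 0.06, adjusted p = 0.283, limma), and the rise then came to 0.94 ± 0.06 at 12 h and 1.51 ± 0.06 (2.85-fold) at 24 h. The step of Fbxl22 between 6 h and 12 h, 1.03 ± 0.06, was the largest of any member. Nexn, the gene of the actin-binding protein nexilin, read 11.18, 11.06 and 11.22 in control cells, 10.82, 10.76 and 10.76 at 6 h, 11.34, 11.41 and 11.44 at 12 h, and 11.78, 11.85 and 11.71 at 24 h. Nexn had the largest fall of any member at 6 h (-0.37 ± 0.05, limma adjusted p = 0.000168) and was 0.63 ± 0.05 above control at 24 h. Synm, the gene of the intermediate filament protein synemin, read 6.92, 6.93 and 6.88 in control cells, 6.73, 6.83 and 6.93 at 6 h, 7.20, 7.31 and 7.10 at 12 h, and 7.78, 7.52 and 7.56 at 24 h. Its rise at 12 h (0.29 ± 0.08) was lost without control array 3 or 12 h array 2 (adjusted p up to 0.0628, limma), whereas that at 24 h was 0.71 ± 0.08.

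The 5 dense plaque genes, whose products tie actin to the integrins, all rose at 24 h, with differences of 0.13 to 0.30. Vcl, the gene of vinculin, was the early riser among them, with 0.39 ± 0.04 at 6 h, 0.36 ± 0.04 at 12 h and 0.30 ± 0.04 at 24 h. Zyx, the gene of zyxin, read 11.29, 11.25 and 11.26 in control cells, 11.41, 11.38 and 11.43 at 6 h, 11.20, 11.23 and 11.31 at 12 h, and 11.55, 11.55 and 11.56 at 24 h. Zyx was higher at 6 h (0.14 ± 0.04), a call lost without control array 2 or 3 or 6 h array 3 (limma adjusted p up to 0.0559), overlapped control at 12 h, where it was the 1 member lower than at 6 h (-0.16 ± 0.04; adjusted p = 0.0536 when these groups were fitted alone), and was higher again at 24 h (0.29 ± 0.04). Tln1, which encodes talin, Parva and Tgfb1i1 rose at 24 h by 0.16 ± 0.04, 0.13 ± 0.04 and 0.23 ± 0.04. Parva, the gene of alpha-parvin, had also fallen at 6 h by 0.10 on the log2 scale, a call that 9 of the 12 single-array omissions removed (adjusted p up to 0.116), and its call at 24 h was lost without control array 1 (adjusted p = 0.0655) and with each array centred on its median (adjusted p = 0.0882).

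The 6 genes of transcription factors and LIM cofactors ranged from -0.23 to 0.36 at 24 h, 5 of them higher and 1 lower. Myocd, which encodes the coactivator myocardin, read 11.49, 11.42 and 11.40 in control cells, 11.70, 11.72 and 11.66 at 6 h, 11.66, 11.69 and 11.70 at 12 h, and 11.71, 11.76 and 11.70 at 24 h. The Ang II arrays of Myocd overlapped each other and all lay above control, by 0.26 ± 0.04, 0.25 ± 0.04 and 0.29 ± 0.04. Srf read 11.73, 11.79 and 11.77 in control cells, 11.67, 11.66 and 11.71 at 6 h, 11.88, 12.01 and 11.91 at 12 h, and 11.97, 11.93 and 11.93 at 24 h. At 6 h Srf lay below the control arrays without passing (-0.09 ± 0.04, limma adjusted p = 0.14; the call was made after quantile normalization, with adjusted p = 0.0193, and with a trended robust variance, with adjusted p = 0.0339), and it was higher at 12 h (0.17 ± 0.04) and 24 h (0.18 ± 0.04). The call for Srf at 12 h was lost without control array 1 or 12 h array 2 (adjusted p up to 0.0563).

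Of the LIM-only cofactors, Fhl2, an SRF target that also restrains SRF activity, read 9.37, 9.45 and 9.32 in control cells, 9.83, 9.85 and 9.84 at 6 h, 9.94, 9.94 and 9.92 at 12 h, and 9.82, 9.71 and 9.67 at 24 h. Fhl2 peaked at 12 h with 0.56 ± 0.05 and was the 1 member that fell between 12 h and 24 h (-0.20 ± 0.05, limma adjusted p = 0.00905). Csrp1 and Csrp2 encode cysteine-rich LIM proteins that bind alpha-actinin and zyxin. Csrp2 read 9.11, 8.98 and 8.97 in control cells, 8.68, 8.76 and 8.73 at 6 h, 8.97, 8.67 and 8.80 at 12 h, and 8.87, 8.70 and 8.82 at 24 h. It was the 1 member lower at 24 h (-0.23 ± 0.07, adjusted p = 0.0388, limma), and that call was lost in 6 of the 12 single-array omissions (without any 1 of the control arrays, 6 h array 3, or 24 h array 2 or 3; adjusted p up to 0.139) and after quantile normalization (adjusted p = 0.112). The fall of Csrp2 at 6 h was -0.30 ± 0.07, and Csrp1 moved the other way, with a rise of 0.25 ± 0.04 at 24 h. Fhl1 rose by 0.20 ± 0.04 at 24 h. The 4 members with a CArG box in the searched window, Srf, Fhl1, Fhl2 and Fbxl22, rose at 24 h by 0.18, 0.20, 0.36 and 1.51, as did 37 of the 41 members in all.

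Read over time, the genes fell into a few courses. An early and lasting rise, past the threshold at all 3 times, was shared by 11 members (26.8%, against 4.96% of all genes): Cnn1, Smtn, Des, Vcl, Myocd, Actn1, Pdlim5, Pdlim7, Hspb6, Fhl2 and Rock2. Csrp1 and Zyx did so at 6 h and 24 h. Another 16 members (39.0%, against 7.33% of all genes) did not pass at 6 h and were higher at 24 h, of which 8 had already risen at 12 h (Tpm2, Synm, Srf, Ppp1r12a, Ppp1r14a, Pdlim3, Fbxl22 and Rock1) and 8 had not (Actg2, Tagln, Myl9, Tpm1, Flna, Fhl1, Tgfb1i1 and Tln1). Csrp2 was lower at 6 h and 24 h, Ppp1r12b at 6 h, and Acta2 and Tpm4 passed at no time against control. In 8 members (Myh11, Lmod1, Mylk, Cald1, Pln, Nexn, Hspb7 and Parva) a fall at 6 h gave way to a rise at 24 h (19.5%, against 1.65% of all genes). The shares of all genes set beside these courses were not matched for level, and bright genes pass more often. The group mean was highest at 24 h for 35 of the 41 members. These comparisons share the same 3 control arrays, so a control value that lies off would move all 3 times together.

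**Figure D5:**
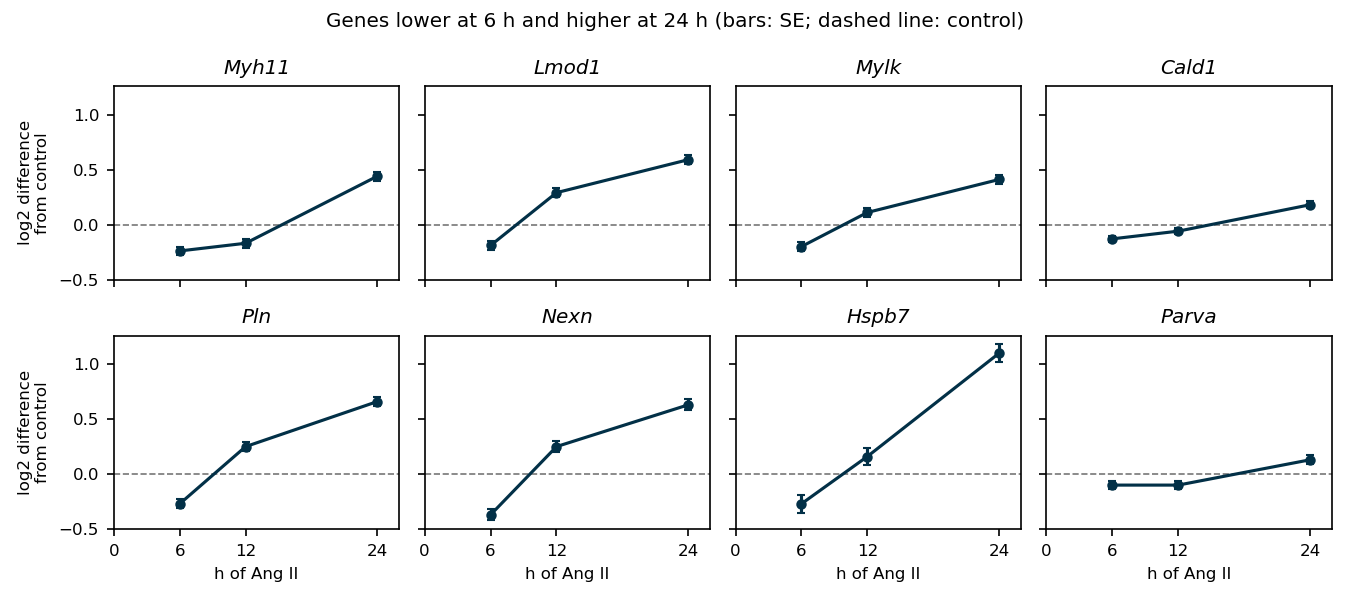
Log2 difference from control (vertical axis) at 6, 12 and 24 h of Ang II (horizontal axis) for the 8 genes that were lower at 6 h and higher at 24 h, with bars for the standard error and a dashed line at control. Hspb7 covers the widest range, from -0.27 to 1.10, and Parva the narrowest.

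The steps between neighbouring times use other arrays than control. Between 6 h and 12 h 14 members rose (34.1%, against 13.1% of all genes) and 1 fell (2.44%, against 13.9% of all genes), led by Fbxl22 (1.03 ± 0.06), Nexn (0.62 ± 0.05), Rock1 (0.59 ± 0.05) and Hspb6 (0.54 ± 0.07). Between 12 h and 24 h 27 members rose (65.9%, against 14.0% of all genes) and 1 fell (2.44%, against 13.5% of all genes), led by Pdlim3 (1.18 ± 0.06), Hspb7 (0.94 ± 0.08), Hspb6 (0.67 ± 0.07) and Ppp1r14a (0.65 ± 0.06). By arrays, 21 members lay wholly above 6 h at 12 h and 5 wholly below (all genes 19.1% and 20.2%), and 30 lay wholly above 12 h at 24 h and 3 wholly below (all genes 22.2% and 18.0%). The median step of the members was 0.07 between 6 h and 12 h and 0.22 between 12 h and 24 h, beside 0.00 and 0.04 over all genes. Within the brightest quartile 10 of 36 members rose between 6 h and 12 h, against 19.3% of its genes. There 24 of 36 members rose between 12 h and 24 h, against 21.4%, and 26 of 36 between 6 h and 24 h, against 28.1%. Set directly against 6 h, 30 members were higher at 24 h (73.2%, against 19.4% of all genes) and 0 were lower by limma (19.8% of all genes; 3 members at an unadjusted p under 0.05), while 33 lay wholly above and 4 wholly below (all genes 25.7% and 23.2%). Over the 4 groups 39 of 41 members differed (limma F test, adjusted p under 0.05, as did 51.5% of all genes), the exceptions being Acta2 and Tpm4, and the largest F statistics belonged to Fbxl22, Pdlim3 and Hspb6.

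Other smooth muscle genes and other genes of the pathway, taken from lists after removal of the members, were set beside the members. Over all genes 15.3% rose and 14.7% fell at 24 h, and 18.6% rose and 17.2% fell at 6 h. When only the 7253 genes at or above the median level were fitted, 1775 rose and 2096 fell at 24 h. Of 27 further smooth muscle genes 16 rose and 5 fell at 24 h (median 0.27), against 9 and 8 at 6 h. Mustn1 (1.77 ± 0.06), Mcam (1.14 ± 0.04) and the sarcoglycan gene Sgca (1.08 ± 0.06) rose most at 24 h, and Pdlim2 (-1.01 ± 0.07), Sorbs3 (-0.60 ± 0.05) and Sgcd (-0.48 ± 0.09) fell. Of 34 other targets of SRF and its coactivators 12 rose and 13 fell at 24 h, with a median of 0.04. The largest falls in this list at 24 h were those of the immediate-early genes Egr1 (-2.96 ± 0.07), Fos (-2.71 ± 0.10) and Egr3 (-2.51 ± 0.09). At 12 h they stood at -3.53 ± 0.07, -2.80 ± 0.10 and -2.66 ± 0.09. Values of the other immediate-early genes in the list are not given here. Ankrd1, also of this list, was lower at 6 h (-1.75 ± 0.06). In the same list the integrin gene Itga5 (0.70 ± 0.04) and the actin dynamics genes Cap1 (0.33 ± 0.04) and Wdr1 (0.32 ± 0.04) rose at 24 h.

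Among 21 other cofactors and regulators of SRF 6 rose and 5 fell at 24 h, where 15.3% of all genes rose and 14.7% fell. Klf4, the gene of a repressor of smooth muscle genes, averaged 8.38 at 24 h, against 10.91 in control cells, a difference of -2.53 ± 0.07. Tead3 rose (0.51 ± 0.04), while Lmo7 (-0.81 ± 0.07) and Gata6 (-0.74 ± 0.06) fell. Elk3, the gene of a ternary complex factor, was highest early, at 0.82 ± 0.04 over control at 6 h and 0.26 ± 0.04 at 24 h. Of 24 genes known from the growing, synthetic state of smooth muscle 7 rose and 9 fell at 24 h, among them the rising Mgp (0.58 ± 0.07) and Spp1 (0.49 ± 0.04) and the falling Ereg (-2.45 ± 0.08).

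Markers of other cells moved as well. Of all genes, 15.3% rose and 14.7% fell at 24 h, and 13.3% rose and 13.3% fell at 12 h. Of 28 striated muscle genes 15 rose and 1 fell at 24 h (median 0.25), against 3 and 1 at 12 h, and the mean over the list per array was 7.73 to 7.77 at 24 h, against 7.38 to 7.40 in control. The largest of these rises were those of the myosin heavy chain genes Myh1 (1.31 ± 0.05) and Myh2 (1.16 ± 0.07) and of Acta1 (0.97 ± 0.04). Of 14 fibroblast markers 1 rose and 8 fell at 24 h (mean per array 9.16 to 9.21, against 9.52 to 9.57 in control), led by Pdgfra (-1.15 ± 0.06). Of 13 endothelial markers 5 rose and 1 fell (7.10 to 7.13, against 7.00 to 7.02 in control), and of 14 leukocyte markers 1 fell, Cd14 (-1.01 ± 0.08; 6.02 to 6.08, against 6.04 to 6.08 in control). Their part in the results above was not tested.

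For the 3 members with the largest F statistic, the genes outside the list with the most similar course over the 12 arrays were named as a description, since all points share the same 4 groups. Fbxl22 was closest to Fas (Pearson r = 0.996), Abcg4 (0.993), Lims2 (0.991), Tlr3 (0.983) and Cds2 (0.983). Pdlim3 was closest to Atxn1 (0.995), Uba2 (0.988), Bves (0.986), Aoc3 (0.985) and Ptprq (0.985). Hspb6 was closest to Ppp2r3a (0.985), Flvcr2 (0.985), Nptn (0.983), Sorbs2 (0.980) and Cast (0.980). All 15 of these genes were higher at 24 h than in control cells, by 0.31 (Cast) to 1.34 (Abcg4).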

How the data were processed

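Total RNA from 12 cell samples, 3 in each of 4 groups named in the sample titles, was run on 1 Affymetrix Rat Gene 1.0 ST array each. The deposited values are on a log2 scale, as their range of 2.25 to 14.6 shows, and per the submitters' processing notes the authors used Partek and RMA, without stated versions or filters. Array medians lay between 7.22 and 7.32. Of 29214 probe sets, 15310 carried exactly 1 gene symbol in the platform annotation, and for 527 genes with several such probe sets the brightest was kept, which gave 14506 genes.

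Group means were fitted with limma 3.58.1 (R 4.3.3) to all 12 arrays, with 8 residual and 3.37 prior degrees of freedom, two-sided tests, Benjamini-Hochberg adjustment over all genes within a comparison and no filter on dim genes. Values after ± are standard errors of log2 differences from this fit. The step was tested on simulated data beforehand. For 24 h against control it recovered 62% of 1.25-fold, 88% of 1.5-fold and 100% of 2-fold rises. A small change can therefore be missed, and a difference that did not pass is not shown to be absent. The members, the gene lists and the tests were chosen with earlier results of these data known, and the comparison of 24 h with 6 h was added after its values were seen. Values in every array are given for Acta2, Actg2, Myh11, Tagln, Cnn1, Smtn, Lmod1, Des, Myocd and Srf, for the members with the 6 largest passing rises and falls against control, and for the 4 largest in either direction between neighbouring times. From each other list up to 3 passing genes per direction and comparison were named. The alternatives tried changed the arrays in the fit (each comparison's own arrays, or 1 array omitted), the replicate number (as a block), the genes kept (those at or above the median level), the probe set rule (their mean), the scaling (quantile, or each array centred on its median), the variance model (trended and robust) and the minimum size (1.25-fold). Promoter sequences came from RefSeq (assembly GRCr8), and the build behind the array annotation is not given here. Python 3.11.15, pandas 2.3.3 and matplotlib 3.10.9 were used for tables and plots. The result of 1 further gene list is not reported here.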

Additional observations from a re-analysis of the deposited data

Results flagged for a closer look

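In 8 smooth muscle genes the effect against control turned over with time: each was called lower at 6 h and higher at 24 h (limma, adjusted p under 0.05). The log2 difference of 24 h against 6 h was 1.37 for Hspb7, 1.00 for Nexn, 0.92 for Pln, 0.78 for Lmod1, 0.68 for Myh11, 0.62 for Mylk, 0.31 for Cald1 and 0.23 for Parva. These values describe the genes, since the calls that chose them use the same arrays. The calls at 6 h for Hspb7 and Parva, and that of Parva at 24 h, did not survive every omission of 1 array. With each array centred on its median the 6 h calls of Cald1 (limma adjusted p = 0.0557) and Parva (0.145) were lost. That of Parva at 24 h was lost too (0.0882). A fit of each comparison's own arrays lost the 6 h calls of Hspb7 (limma adjusted p = 0.0586) and Parva (0.081). It also lost that of Parva at 24 h (0.0669). Of the 8 falls at 6 h only that of Nexn (1.29-fold) reached the minimum size given above. At 24 h the rises of Cald1 (1.13-fold) and Parva (1.09-fold) did not reach it.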

How the results depend on the processing

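No member called in the planned comparisons reversed its direction under the alternatives run, and the counts of higher members kept within 1.5 times under every alternative except the minimum size. With that minimum 8 members were higher and 1 lower at 6 h, 10 and 0 at 12 h, and 23 and 0 at 24 h against control; 9 were higher and 0 lower between 6 h and 12 h, 11 and 0 between 12 h and 24 h, and 17 and 0 between 6 h and 24 h. Without it limma called 10 lower at 6 h 1 in each of the other planned comparisons, and 0 between 6 h and 24 h (3 at an unadjusted p under 0.05). The small counts of lower members moved most. At 12 h against control 2 members were lower with the replicate block or after quantile normalization, and 3 with only genes at or above the median level (39 members) or with the trended robust variance. At 24 h against control 0 were lower after quantile normalization (limma; 1 at an unadjusted p under 0.05). Between 6 h and 12 h 0 were lower with these groups alone (limma; 3 at an unadjusted p under 0.05), 3 with the median level filter or quantile normalization, and 4 with the trended robust variance, which gave 2 between 12 h and 24 h. Between 6 h and 24 h, a comparison added after the values were seen, 3 were lower with the median level filter, with median centring or with the trended robust variance. The cause of these shifts was not tested. Leaving out 1 array at a time gave, for higher and lower members, 12 to 13 and 7 to 10 at 6 h, 19 to 22 and 1 to 2 at 12 h, 36 to 37 and 0 to 1 at 24 h, 12 to 15 and 1 to 1 between 6 h and 12 h, 26 to 28 and 1 to 1 between 12 h and 24 h, 27 to 29 and 0 to 1 between 6 h and 24 h, and 38 to 39 by the F test. Single calls lost in this way besides those named with their genes above are Tgfb1i1 and Ppp1r12b between 6 h and 12 h (adjusted p up to 0.0629 and 0.061, limma) and Fhl1 between 12 h and 24 h (up to 0.058). A fit of each comparison's own arrays lost Csrp1, Flna and Fhl1 between 12 h and 24 h (limma adjusted p = 0.0566, 0.0821 and 0.0652). It also lost Tpm2 at 12 h (0.0967) and Tgfb1i1 between 6 h and 12 h (0.0542). Against control it lost Hspb7 at 6 h (0.0586) and Parva at 6 h (0.081) and 24 h (0.0669). Median centring lost the same calls of Csrp1, Flna, Fhl1 and Tpm2 (0.102, 0.152, 0.133 and 0.0558). Samples of the same replicate number did not deviate together (median correlation 0.027 over 18 pairs, 3 of them over 0.1), so the numbers were not taken as pairs. The replicate block left 13 higher and 9 lower at 6 h and 37 higher and 1 lower at 24 h, and of single calls it lost Parva at 6 h (adjusted p = 0.0693, limma) and Tpm2 at 12 h (0.058).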
